A study of Homo sapiens with 6 samples.

Results

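The Sprouty genes (SPRY1, SPRY2 and SPRY4), the SPRED genes (SPRED1, SPRED2 and SPRED3) and the PEA3 genes (ETV1, ETV4 and ETV5) were followed in BT-549 cells after silencing of the lncRNA NEAT1. These 9 genes were taken by symbol from a table of 25545 genes, and 10721 genes of that table were tested. The BT-549 line derives from a triple-negative breast cancer (TNBC). A group of 3 libraries came from cells given a control siRNA (CsiRNA), and the other 3 came from cells given a siRNA against NEAT1 (NEAT1siRNA), each for 48 h. Both groups were untreated otherwise, grew with serum and insulin, and carry "tet" in their titles, although the treatment text names siRNA transfection alone. A single cell line and a single NEAT1siRNA were used. Nothing in the labels says more about the replicates than that cells were cultured in triplicates, so p-values measure the spread between these cultures, which may be technical. The 9 genes were chosen with the comparison of NEAT1siRNA and CsiRNA known, so their differences, and how many met the threshold used for all genes, are given as a description that supports nothing.

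Sprouty proteins are feedback inhibitors of receptor tyrosine kinase signalling. ERK activity raises their transcripts, and the proteins then dampen the path from growth factor receptors through RAS and RAF to ERK. SPRED proteins share the cysteine-rich Sprouty domain and recruit neurofibromin (NF1), a GTPase-activating protein that switches RAS off. ETV1, ETV4 and ETV5 are ETS transcription factors whose transcripts rise with FGF and ERK signalling, and the repressor CIC binds an octamer near several of these genes until ERK relieves it. For this reason transcripts of all 3 families are commonly read as outputs of ERK.

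NEAT1 itself was at 3.35 ± 0.885 TPM after silencing, against 10.6 ± 2.86 TPM in the control (SD, n = 3 each), a log2 fold change of -1.41 (adjusted p = 1.21e-07 from limma), so the libraries went with their labels. TPM divides the reads of a gene by transcript length and scales each library to the same sum. This allows levels to be compared between genes as far as the lengths fit the transcripts expressed. Those lengths are not given, and the spread between libraries does not measure this limit on the order of genes. TPM values keep no depth. Reads recovered by joining the TPM with the authors' mean normalized counts summed to between 15787143 and 20342700 per library. The defining genes of the mesenchymal TNBC state were present, with a summed TPM of 1547 to 1747 in CsiRNA and 1414 to 1638 in NEAT1siRNA libraries for 6 of 6 markers, most of it from VIM and SPARC. Within this list FN1 (fibronectin) and CDH2 (N-cadherin) were lower, at 71.7% and 79.1% of the control mean (adjusted p = 0.00116 and 0.0186 from limma), and the part of this in the results on the 9 genes was not tested. Of 9 luminal epithelial markers, 2 reached a mean of 1 TPM (ERBB2 and KRT18), ESR1 was listed at 0 in every library, and their sum was 7.59 to 7.86 TPM with CsiRNA and 7.62 to 8.85 TPM with NEAT1siRNA. The 3 endothelial markers summed to at most 0.0125 TPM. Of the immune markers, CD3E was listed at 0 in every library and PTPRC was at most 0.0580 TPM. CD68, a lysosomal gene that is not limited to immune cells, was at 24.5 to 29.2 TPM with CsiRNA and 23.2 to 24.2 TPM with NEAT1siRNA. In bulk RNA, fewer cells with a transcript and less of it per cell cannot be told apart.

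The sequences around the start sites of these genes are shown first, as a description, and their part in any change of expression was not tested. RefSeq promoter windows of GRCh38.p14, with 250 bases before and 50 bases after a start, were found for 7 of the 9 genes, 17 windows in all. ETV4 and ETV5 had no window. Each window was searched on both strands for the CIC octamer (TGAATGAA, TGAATGGA, TCAATGAA or TCAATGGA), the ETS octamer CCGGAAGT, the AP-1 site (TGACTCA or TGAGTCA), the E-box CACGTG and the cyclic AMP response element TGACGTCA. The CIC octamer was found beside SPRED3 and ETV1, shown here 5′ to 3′ on the strand of the gene with the octamer in capitals.

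SPRED3: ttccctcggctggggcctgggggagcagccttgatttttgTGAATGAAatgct

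ETV1: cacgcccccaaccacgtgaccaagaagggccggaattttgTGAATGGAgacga

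The SPRED3 stretch is chr19:38389559-38389611 on the plus strand, within an intron of the annotated gene, and its octamer begins 192 bases upstream of an internal start. The ETV1 stretch is chr7:13991538-13991590 on the minus strand, outside the annotated span of the gene, with the octamer 125 bases upstream of a start. The longest stretch the sequences share has 11 bases, reaching from the T run before the octamer into it, and its part within the octamer follows largely from the search. Of 35116 windows of this length, 3.77% hold the CIC octamer, and 4.62% of 27305 genes hold it in any of their windows. ETV1 had 6 of the 17 windows. The octamer was not tested against the change in expression.

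An AP-1 site was found beside SPRED2 and SPRED3, and that of SPRED2, the nearest of all matches to a start, is shown with the site in capitals.

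SPRED2: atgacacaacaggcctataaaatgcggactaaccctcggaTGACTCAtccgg

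The SPRED2 site lies in chr2:65366773-65366824 on the minus strand, in an intron, and the site begins 6 bases upstream of an internal start. The SPRED3 site, of the same letters, lies in an annotated exon and begins 60 bases upstream of the start that follows the octamer. AP-1 sites were present in 4.95% of all windows and for 6.05% of genes. ETV1 also held an E-box 153 bases before a start and within the ETV1 stretch shown. The E-box was present in 7.26% of windows and for 8.77% of genes. A match describes the letters only. Neither the ETS octamer (4.14% of windows) nor the cyclic AMP response element (1.85%) was present in the 17 windows, and the windows of SPRY1, SPRY2, SPRY4 and SPRED1 held none of the 5 motifs.

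With CsiRNA, ETV5 was the most abundant of the 9 transcripts, at 13.0 ± 0.728 TPM (SD, n = 3), above 59.9% of the genes tested. SPRY2 followed at 7.39 ± 0.589 TPM, and its range lay below that of ETV5 and above that of SPRY1. SPRY1 (5.67 ± 0.753 TPM) and SPRED2 (5.49 ± 0.268 TPM) had overlapping ranges and could not be ordered. SPRY4 (4.39 ± 0.285 TPM) and SPRED1 (3.96 ± 0.405 TPM) likewise overlapped, below SPRED2. SPRED3, ETV1 and ETV4 formed the low end at 2.14 ± 0.217, 2.10 ± 0.159 and 2.04 ± 0.0547 TPM (SD, n = 3 each), with overlap between neighbours. SPRY3, the remaining Sprouty gene and not among the 9, was named after its values were seen. It had a total of 0 to 2 recovered reads per library, which leaves SPRY1, SPRY2 and SPRY4 as the Sprouty transcripts measured in these cells.

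With NEAT1siRNA, 6 of the 9 genes had lower values in all 3 libraries than in any CsiRNA library, and 3 had overlapping ranges. The 6 were SPRY1, SPRY2, SPRY4, SPRED3, ETV4 and ETV5. The same 6 genes, each with lower expression, were past an adjusted p of 0.05 in limma's fit over all genes (moderated, two-sided, Benjamini-Hochberg), and 0 were higher. Over all genes tested, 14.0% were past this threshold, 8.98% with lower expression, and 19.3% had all 3 NEAT1siRNA values under every control value. The 9 genes were chosen from this comparison, so nothing is read from their count. All 9 passed the filter of a mean of 1 TPM. The median log2 fold change of the 9 was -0.39, against -0.044 for all genes tested. Fold changes were computed on log2(TPM + 1), a scale that makes the change of a low transcript look smaller than it is.

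**Figure D1:**
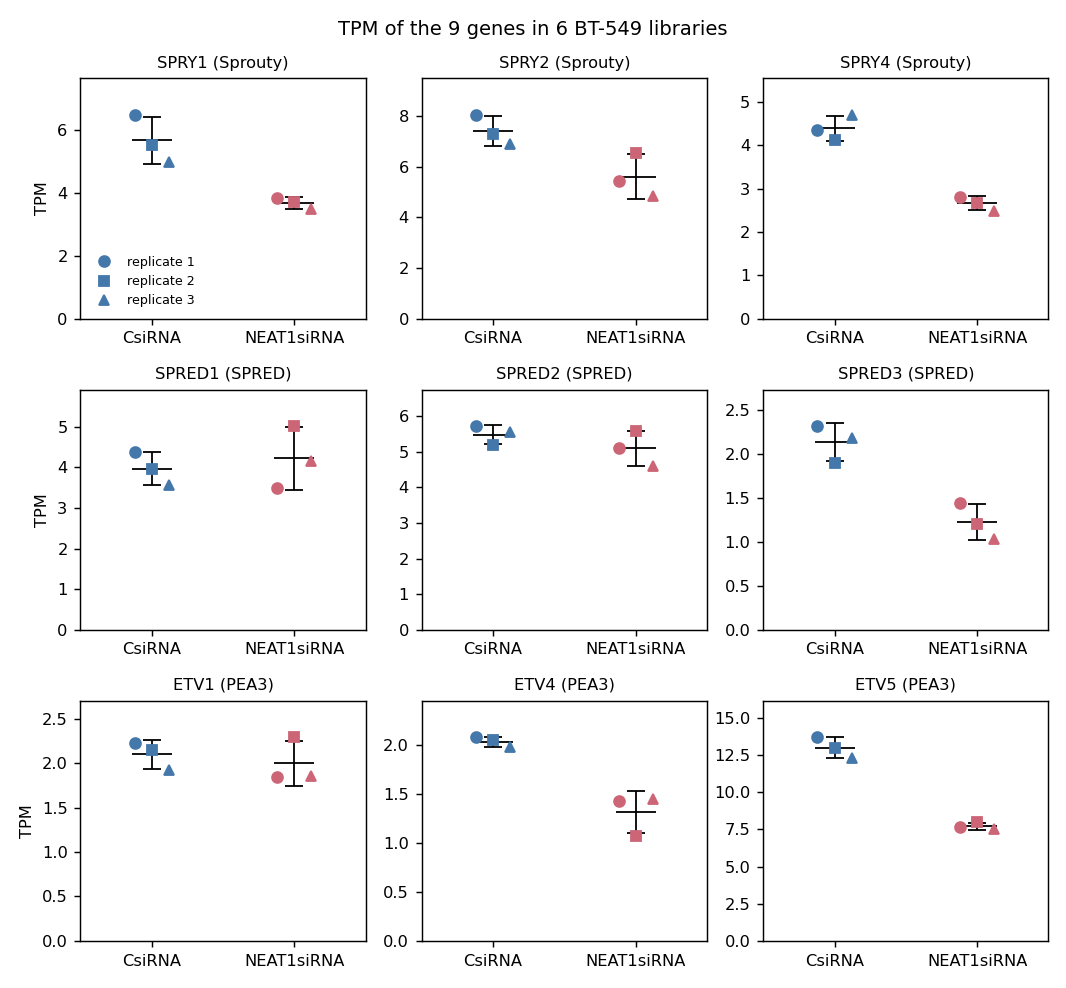
TPM (vertical axes, each from 0) of the 9 genes in the 3 CsiRNA and 3 NEAT1siRNA libraries, with a point per library, a bar at the mean and error bars of 1 SD. For SPRY1, SPRY2, SPRY4, SPRED3, ETV4 and ETV5 the NEAT1siRNA points lie below all CsiRNA points, and for SPRED1, SPRED2 and ETV1 they overlap.

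SPRY1, at chr4:123396795-123403760 (plus strand) of GRCh38, encodes an inhibitor of FGF and RET signalling. The CsiRNA replicates 1, 2 and 3 held 6.48, 5.54 and 5.0 TPM, and the NEAT1siRNA replicates held 3.85, 3.72 and 3.48 TPM in the same order. The CsiRNA libraries spread more widely than the NEAT1siRNA libraries, and the groups stood 1.15 TPM apart at their nearest points. Its mean after NEAT1 silencing was 64.9% of the control mean, a log2 fold change of -0.51 (SE 0.10).

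SPRY2, at chr13:80335976-80341126 (minus strand), encodes an inhibitor that binds GRB2 and the ubiquitin ligase CBL. In CsiRNA replicates 1, 2 and 3 its level was 8.03, 7.29 and 6.87 TPM, against 5.43, 6.55 and 4.83 TPM in the NEAT1siRNA replicates in that order. NEAT1siRNA replicate 2 came within 0.320 TPM of the lowest CsiRNA library, the narrowest gap of the 6 genes. The mean was 75.8% of that with CsiRNA, and the log2 fold change was -0.35 (SE 0.10). It shrank to -0.30 when CsiRNA replicate 1 was left out and to -0.27 when NEAT1siRNA replicate 3 was left out.

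SPRY4, at chr5:142310427-142326455 (minus strand), encodes an inhibitor of RAS activation and is often used as a readout of ERK. The CsiRNA replicates 1, 2 and 3 held 4.36, 4.13 and 4.70 TPM, and the NEAT1siRNA replicates held 2.82, 2.68 and 2.49 TPM in the same order. Both groups were tight, and the gap between them was 1.31 TPM. SPRY4 averaged 60.6% of its control level, and the log2 fold change was -0.56 (SE 0.09). A lncRNA on the opposite strand, SPRY4-AS1, overlaps the SPRY4 span and had 0.142 to 0.915 TPM, or 1 to 6 recovered reads per library, too few to compare.

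Summed, SPRY1, SPRY2 and SPRY4 amounted to 18.9, 17.0 and 16.6 TPM with CsiRNA and 12.1, 12.9 and 10.8 TPM with NEAT1siRNA. The sum with NEAT1siRNA was 68.4% of that with CsiRNA. SPRY2 made up 42.3 ± 0.787% of the Sprouty sum with CsiRNA and 46.7 ± 3.33% with NEAT1siRNA (SD, n = 3 each), and its NEAT1siRNA shares of 44.7% to 50.6% lay above the CsiRNA shares of 41.5% to 43.0%. The shares of SPRY1 and SPRY4 overlapped between the groups.

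Among the SPRED genes, SPRED3 had lower values, whereas SPRED1 and SPRED2 overlapped between the groups. SPRED1, at chr15:38252836-38357249 (plus strand), is the gene mutated in Legius syndrome and binds NF1. In CsiRNA replicates 1, 2 and 3 its level was 4.37, 3.96 and 3.56 TPM, against 3.48, 5.01 and 4.16 TPM in the NEAT1siRNA replicates in that order. NEAT1siRNA replicate 1 was the lowest and NEAT1siRNA replicate 2 the highest of the 6 libraries, so the NEAT1siRNA libraries enclosed the CsiRNA range. On the log2 scale SPRED1 differed by 0.07 (SE 0.11).

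SPRED2, at chr2:65310851-65432637 (minus strand), encodes a closely related NF1-binding protein. The values were 5.72, 5.19 and 5.55 TPM with CsiRNA and 5.10, 5.59 and 4.61 TPM with NEAT1siRNA, in the order of replicates 1, 2 and 3. NEAT1siRNA replicate 2 fell inside the CsiRNA range and the other two below it. SPRED2 averaged 92.9% of its control level, and the log2 fold change was -0.09 (SE 0.10).

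SPRED3, at chr19:38388421-38399587 (plus strand), encodes the family member that lacks a functional KIT-binding domain. The CsiRNA replicates 1, 2 and 3 held 2.32, 1.90 and 2.19 TPM, and the NEAT1siRNA replicates held 1.44, 1.20 and 1.04 TPM in the same order. The groups stood 0.454 TPM apart. The mean with NEAT1siRNA was 57.5% of that with CsiRNA, the lowest such share of the 9 genes, although the log2 fold change on the TPM + 1 scale was -0.50 (SE 0.10). With voom on recovered reads, which adds no constant of 1 TPM, the log2 fold change was -0.76.

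The summed TPM of the SPRED genes was 12.4, 11.1 and 11.3 with CsiRNA and 10.0, 11.8 and 9.81 with NEAT1siRNA, so these ranges overlapped. SPRED3 made up 18.4 ± 1.15% of this sum with CsiRNA and 11.7 ± 2.32% with NEAT1siRNA (SD, n = 3 each). The highest NEAT1siRNA share, 14.4%, lay below the lowest CsiRNA share, 17.2%. SPRED2 contributed about the same share in both groups, at 47.4 ± 1.55% and 48.4 ± 2.14%.

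Of the PEA3 genes, ETV4 and ETV5 had lower values and ETV1 overlapped. ETV5, at chr3:186046314-186110318 (minus strand), encodes the PEA3 factor also known as ERM. In CsiRNA replicates 1, 2 and 3 its level was 13.7, 13.0 and 12.3 TPM, against 7.65, 7.98 and 7.52 TPM in the NEAT1siRNA replicates in that order. The NEAT1siRNA libraries agreed within 0.242 TPM (SD), and the gap of 4.28 TPM to the CsiRNA libraries was the widest of the 9 genes. The mean was 59.3% of that with CsiRNA, and the log2 fold change of -0.68 (SE 0.09) was the largest of the 9 on the log2(TPM + 1) scale. The neighbouring DGKG gene on the same strand overlaps the ETV5 span and had at most 1 recovered read in a library.

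ETV4, at chr17:43527844-43579620 (minus strand), encodes the PEA3 factor that gave the group its name. The CsiRNA replicates 1, 2 and 3 held 2.08, 2.05 and 1.98 TPM, and the NEAT1siRNA replicates held 1.43, 1.07 and 1.45 TPM in the same order. The CsiRNA libraries lay close together and NEAT1siRNA replicate 2 was the lowest. The mean with NEAT1siRNA was 64.7% of that with CsiRNA, and the log2 fold change was -0.39 (SE 0.10). ETV4 had the fewest recovered reads of the 9, from 65 to 130 per library, which corresponds to a counting error of 12.4% to 8.77%. DHX8, which encodes an RNA helicase on the opposite strand across the ETV4 locus, had 5.49 ± 0.233 TPM with CsiRNA and 5.55 ± 0.395 TPM with NEAT1siRNA (SD, n = 3 each), which differed by 0.01 on the log2 scale (adjusted p = 0.960 from limma).

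ETV1, at chr7:13891229-13991425 (minus strand), is the PEA3 factor known as ER81. In CsiRNA replicates 1, 2 and 3 its level was 2.23, 2.15 and 1.92 TPM, against 1.84, 2.29 and 1.86 TPM in the NEAT1siRNA replicates in that order. The groups overlapped, with NEAT1siRNA replicate 2 the highest of the 6 libraries. The log2 fold change was -0.05 (SE 0.10).

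The PEA3 sum was 18.0, 17.3 and 16.2 TPM with CsiRNA and 10.9, 11.3 and 10.8 TPM with NEAT1siRNA, or 64.3% of the CsiRNA mean. ETV5 made up 75.9 ± 0.253% of the PEA3 transcripts with CsiRNA and 69.9 ± 0.482% with NEAT1siRNA (SD, n = 3 each), whereas the share of ETV1 was 12.2 ± 0.311% and 18.1 ± 1.84%. The shares of both genes did not overlap between the groups. In order of level, ETV5 was the highest of the 9 genes in both groups. SPRY1, whose range lay above that of SPRED1 with CsiRNA, had a lower mean than SPRED1 with NEAT1siRNA. There the range of SPRY1 (3.48 to 3.85 TPM) still overlapped that of SPRED1 (3.48 to 5.01 TPM). SPRY4 overlapped SPRED1 with CsiRNA, and its range (2.49 to 2.82 TPM) lay below that of SPRED1 with NEAT1siRNA.

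**Figure D2:**
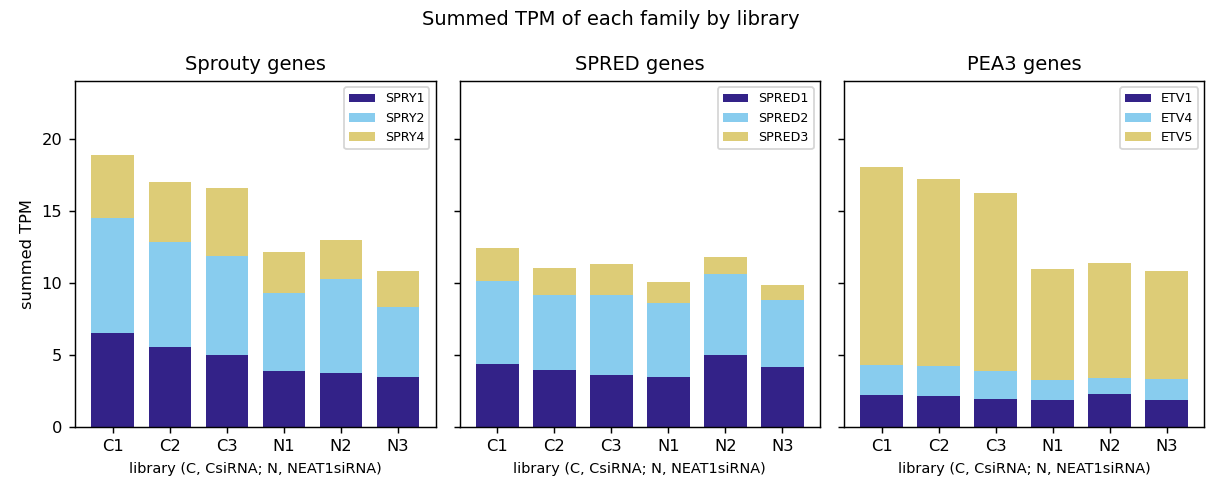
Summed TPM (vertical axis, from 0) of the Sprouty, SPRED and PEA3 genes in each library, where C1 to C3 are CsiRNA and N1 to N3 are NEAT1siRNA libraries and each colour is a gene. The Sprouty sums run from 16.6 to 18.9 TPM with CsiRNA and from 10.8 to 12.9 TPM with NEAT1siRNA, the PEA3 sums from 16.2 to 18.0 and from 10.8 to 11.3 TPM, and the SPRED sums overlap.

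Relative to the CsiRNA mean on the log2(TPM + 1) scale, the 6 lower genes lay between -0.15 and -0.72 in each NEAT1siRNA library. NEAT1siRNA replicate 2 did not move alike for all of them. It held the highest value of the NEAT1siRNA libraries for SPRY2 (-0.15) and ETV5 (-0.64), and the lowest for ETV4 (-0.55). For the other 3 genes, replicate 2 was at 0.28 for SPRED1, 0.02 for SPRED2 and 0.09 for ETV1, above the other NEAT1siRNA libraries in each case.

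**Figure D3:**
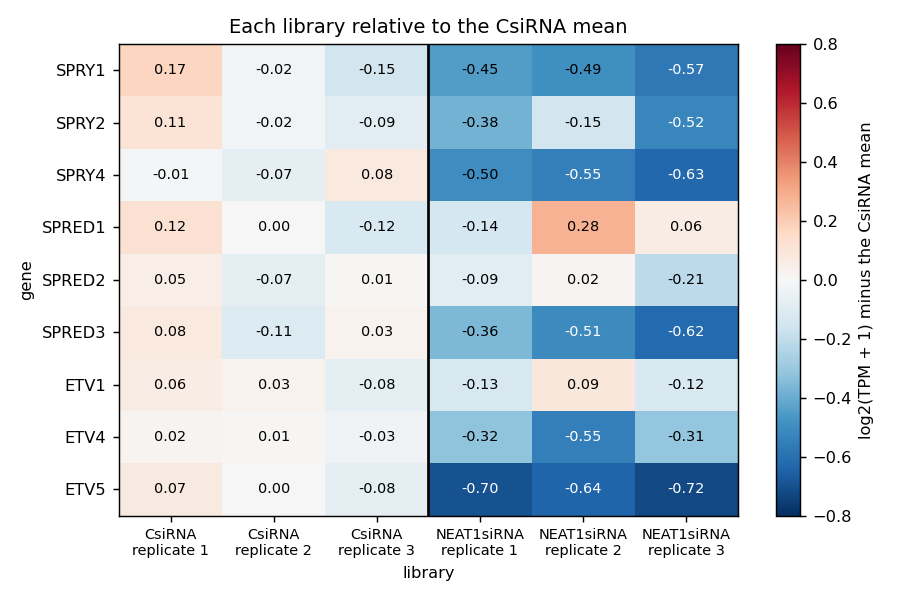
Heat map of log2(TPM + 1) minus the CsiRNA mean for the 9 genes (rows) in the 6 libraries (columns), with the value printed in each cell. The NEAT1siRNA columns hold values from -0.15 to -0.72 for the 6 lower genes and from -0.21 to 0.28 for SPRED1, SPRED2 and ETV1.

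The NEAT1siRNA libraries deviated from their group mean along with transcript GC content, by a Spearman rho over 10430 genes of 0.66 in replicate 1, -0.71 in replicate 2 and 0.13 in replicate 3, a description over genes of shared libraries. In the CsiRNA libraries rho lay between -0.33 and 0.46. SPRED1 and ETV1 had the lowest GC content of the 9 longest transcripts, at 36.3% and 37.1%, and ETV4 and SPRED3 the highest, at 60.6% and 59.1%. Once the dependence on GC and length was taken out of each library, the log2 fold change was 0.07 for SPRED1, 0.00 for SPRED2 and -0.05 for ETV1. It ran from -0.29 (SPRY2) to -0.59 (ETV5) for the 6 lower genes. A group of 4 short noncoding RNAs held 64.4% to 68.1% of the TPM of a library, so the scale of every other gene depends on them. Over all genes the comparison gave 535 higher and 963 lower genes, and this balance depended on the scaling, with 1082 and 1109 after quantile normalization, 1158 and 954 after median centring, and 1187 and 1307 with voom on recovered reads.

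**Figure D4:**
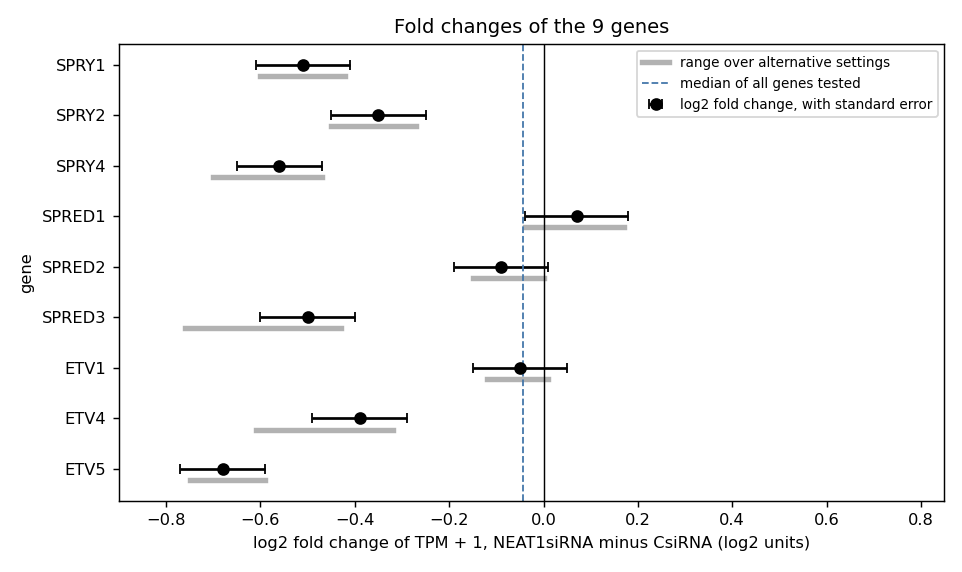
Log2 fold change of TPM + 1, NEAT1siRNA minus CsiRNA (horizontal axis), of the 9 genes, with the standard error as black bars, the range over the alternative settings as grey bars, and the median of all genes tested as a dashed line at -0.044. The grey bars of SPRY1, SPRY2, SPRY4, SPRED3, ETV4 and ETV5 lie at or below -0.27, and those of SPRED1, SPRED2 and ETV1 reach from -0.15 to 0.17.

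The pathway around these genes was followed in 6 lists, whose genes were tested in the same fit. The count of each list stands beside the 14.0% of all genes tested that were past the threshold, 8.98% with lower expression. Other transcripts commonly read as ERK outputs had lower expression in 11 of 14 tested genes, 0 were higher, and the median log2 fold change was -0.45. This list was written with earlier results of these data known, so its direction is not independent evidence. FOSL1, an AP-1 subunit, fell to 34.1 ± 1.0 TPM from 67.1 ± 3.30 TPM (SD, n = 3 each), a log2 fold change of -0.96 (adjusted p = 3.46e-08 from limma). DUSP6, the phosphatase that inactivates ERK in the cytoplasm, fell to 3.14 ± 0.334 TPM from 6.73 ± 0.630 TPM, a log2 fold change of -0.90 (adjusted p = 5.88e-07 from limma). CCND1, encoding cyclin D1, and EPHA2, an ephrin receptor, had log2 fold changes of -0.73 (adjusted p = 8.54e-06) and -0.70 (adjusted p = 8.11e-06 from limma). The remaining lower genes were DUSP4, DUSP5, DUSP7, IER3, MYC, HMGA2 and MAFF, with log2 fold changes from -0.56 (MAFF) to -0.34 (HMGA2). The genes not past the threshold were EPHA4 (-0.25), PHLDA1 (-0.09) and EGR1 (0.03), and FOS, with a mean under 1 TPM, was not tested. These 11 genes were named after their values were seen.

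Among 20 receptors, ligands and docking proteins upstream of RAS, 11 were tested, 3 were lower (8.98% over all genes) and 0 higher, and the median log2 fold change was -0.15. The 3 were FGF ligands. A further FGF ligand of the list, FGF18, was not tested because its mean was under 1 TPM. It was at 0.465, 0.216 and 0.444 TPM with CsiRNA and at 0.992, 0.987 and 0.897 TPM with NEAT1siRNA, from 8 to 41 recovered reads a library, and was named after its values were seen. FGF5 fell to 10.2 ± 1.89 TPM from 19.4 ± 1.44 TPM (SD, n = 3 each), a log2 fold change of -0.88 (adjusted p = 2.92e-06 from limma). FGF1 fell by 0.52 on the log2 scale (adjusted p = 0.000768 from limma), and FGF2 (basic FGF) went from 91.2 ± 9.92 TPM to 66.9 ± 10.5 TPM, a log2 fold change of -0.45 (adjusted p = 0.00471 from limma). The FGF2 call was lost without CsiRNA replicate 1 and with no filter on TPM, where its adjusted p reached 0.126. The receptors FGFR1 (-0.07) and FGFR2 (0.22), named after their values were seen, were not past the threshold. After quantile normalization or median centring 4 genes of the list were lower and 2 higher. Over all 10721 genes, 1109 were lower and 1082 higher with quantile normalization, and 954 and 1158 with median centring. With the GC and length trend removed 4 of the list were lower and 3 higher, beside 1710 and 1654 of all 10430 genes. With no filter on TPM 2 were lower and 1 higher, beside 263 and 242 of 18531.

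All 27 genes of the RAS-ERK cascade itself were tested, of which 2 were lower and 2 higher, with a median log2 fold change of 0.01. These 4 of 27 are a share near the 14.0% called over all genes, so nothing particular to the cascade is read from them. RASA1, a GTPase-activating protein for RAS, had a log2 fold change of -0.39 (adjusted p = 0.0112 from limma), and KSR1, a scaffold of the cascade, of -0.31 (adjusted p = 0.0407). MRAS, a RAS-related GTPase, rose by 0.37 (adjusted p = 0.0121), and GAB1, a docking protein, by 0.29 (adjusted p = 0.0472 from limma). The mean of MRAS was 0.923 TPM with CsiRNA and 1.48 TPM with NEAT1siRNA. MRAS thus passed the filter of a mean of 1 TPM only through the group where it was high, so nothing is read from its call. Each of these 4 calls was lost in 2 to 7 alternative fits, with the adjusted p reaching 0.130 for RASA1, 0.235 for KSR1, 0.0571 for MRAS and 0.174 for GAB1. All 4 were lost with no filter on TPM, GAB1 also with the replicate block, and KSR1 also with median centring and with the block and the GC and length trend removed together. The libraries whose omission ended a call were CsiRNA replicate 1 and NEAT1siRNA replicate 3 for RASA1, CsiRNA replicates 1 and 3 and NEAT1siRNA replicate 3 for KSR1, CsiRNA replicate 3 for MRAS, and each library but NEAT1siRNA replicate 1 for GAB1. SHC1, the adaptor with the highest level, was at 126 ± 4.76 and 127 ± 6.16 TPM (SD, n = 3 each). After median centring 1 gene of the cascade was lower and 6 were higher. Over all 10721 genes that fit gave 954 lower and 1158 higher.

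Of 14 genes for proteins that bind, modify or degrade Sprouty and SPRED proteins, 1 was lower and 0 were higher, with a median log2 fold change of -0.01. This 1 of 14 is near the 8.98% called lower over all genes, so nothing particular to the list is read from it. NEDD4, a ubiquitin ligase, had -0.31 (adjusted p = 0.0413 from limma), with overlapping ranges. Its call was lost without CsiRNA replicates 1 or 2, without NEAT1siRNA replicates 1 or 3, and with no filter on TPM, where the adjusted p reached 0.195. CAV1 (caveolin-1), the most abundant of this list, had 0.17 (adjusted p = 0.194), and was past the threshold in 5 alternative fits, where its adjusted p went down to 0.00712. CBL, NF1, GRB2 and PTPN11 (SHP2) had -0.20, -0.13, 0.05 and -0.18, and none of them was past the threshold. These genes were named after their values were seen. NF1, GRB2 and PTPN11 also stand in the cascade list. With median centring 1 gene of this list was lower and 2 were higher, beside 954 lower and 1158 higher of all 10721 genes.

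The 9 genes of PEA3 control (CIC, its ATXN1 partners, the COP1 ligase complex and others) were all tested and 0 passed the threshold in limma, with 2 at an unadjusted p under 0.05 and 2 called with voom. The median log2 fold change was -0.05. CIC went from 8.41 to 10.3 TPM, a log2 fold change of 0.26 (adjusted p = 0.107 from limma), and ATXN1 from 2.16 to 2.68 TPM, 0.22 (adjusted p = 0.156). Both genes were named after their values were seen, and each was past the threshold in 5 alternative fits, voom on recovered reads among them. DDB1, the most abundant of the list, had -0.12 (adjusted p = 0.412). Of 25 other ETS factors, 12 were tested, 1 was lower and 0 higher, and the median log2 fold change was -0.01. This 1 of 12 is likewise near the 8.98% called lower over all genes, and nothing particular to these factors is read from it. ETS1 was the gene that was lower, at 39.8 ± 3.56 TPM against 48.9 ± 3.33 TPM (SD, n = 3 each), a log2 fold change of -0.29 (adjusted p = 0.0391 from limma). Its adjusted p reached 0.215 over the alternatives, and the call was lost without CsiRNA replicates 1 or 2, without NEAT1siRNA replicates 1 or 3, and with no filter on TPM. With median centring 1 factor was lower and 2 were higher, beside 954 lower and 1158 higher of all 10721 genes.

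**Figure D5:**
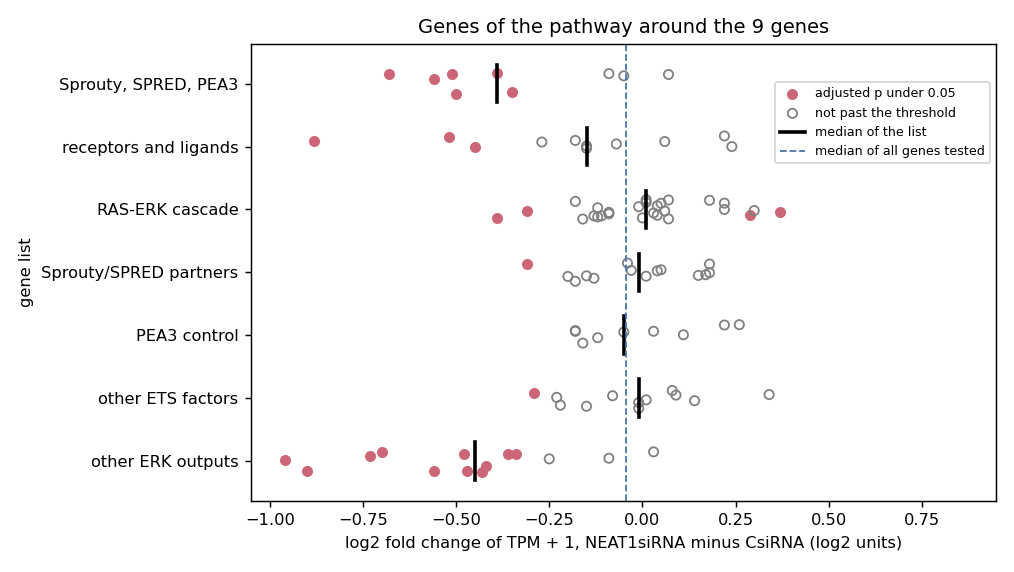
Log2 fold change of TPM + 1, NEAT1siRNA minus CsiRNA (horizontal axis), of the tested genes of each list (rows), with filled points past an adjusted p of 0.05 in limma, a bar at the median of the list and a dashed line at the median of all genes tested. The medians of the Sprouty, SPRED and PEA3 genes (-0.39) and of the other ERK outputs (-0.45) lie left of the medians of the other 5 lists, which run from -0.15 to 0.01.

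The genes whose profile came nearest to the most abundant member of each family were found among 7234 tested genes with a mean of at least 5 TPM, by the root-mean-square (RMS) difference of log2(TPM + 1) relative to the CsiRNA mean over the same 6 libraries. This is a description, and the libraries and their scaling are shared by all genes. Nearest to ETV5 was NUAK2, an AMPK-related kinase, at 0.023, with 6.94 ± 0.265 TPM under CsiRNA and 3.90 ± 0.0666 TPM under NEAT1siRNA (SD, n = 3 each), followed by RGMB, a BMP co-receptor, at 0.039 and TMEM2, a hyaluronidase, at 0.043. Among the 9 genes, SPRY4 (0.124) and SPRY1 (0.139) were nearest to ETV5, and SPRED1 (0.541) the farthest. This order depends on the log2(TPM + 1) scale, which shrinks the change of low transcripts such as SPRED3. SPRED3 was at 57.5% of its control mean, against 59.3% for ETV5. Nearest to SPRY2 were ODR4 (0.028), ATR (0.031), a kinase of the DNA damage response, and MALT1 (0.033), a protease of NF-κB signalling. Each of these 3 genes, like SPRY2, had its highest NEAT1siRNA value in replicate 2, which follows from how they were picked. Nearest to SPRED2 were WDHD1 (0.021), RBM26 (0.022) and HYAL2 (0.022), with overlapping groups as for SPRED2, and ETV1 was the nearest of the 9 at 0.073.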

How the data were processed

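Total RNA from BT-549 cells 48 h after transfection was made into stranded mRNA libraries, and the authors aligned reads with STAR to GRCh38 and compared groups with DESeq2, whose versions are not given in the sources used here. The deposited TPM table gives, per the file headers, a value per gene and library for 25545 genes. The counter and the lengths behind the TPM are not given in the sources used here. From the authors' comparison table of 19392 genes only the mean normalized count (a signal pooled over the 6 libraries) was used. Its log2 fold changes, standard errors, test statistics and p-values were not used.

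The 10721 genes whose mean reached 1 TPM were compared on log2(TPM + 1) with lmFit and eBayes (trend, two-sided) of limma 3.58.1 in R 4.3.3, without covariates, at a Benjamini-Hochberg adjusted p under 0.05. The study ran a count model, which TPM does not allow as the main test. An exact permutation test of 3 against 3 cannot go below 0.1. Whole reads were recovered with the mean normalized count, and 99.8% of values of genes under a mean of 5, 98.5% of those between 5 and 50, 72.1% of those between 50 and 500 and 15.4% of those above lay within 0.05 of whole (10% by chance), so reads of abundant genes, SPRED1, SPRED2 and ETV5 among them, are approximate. Within a group, the chi-square between replicates was 4.58 to 14.3 per degree of freedom, more than sampling noise between reads of the same library. Separate preparations of a single culture cannot be told from separate cultures by this value, which rests on recovered reads. Deviations of same-numbered libraries from their group means had correlations of -0.0304, 0.251 and -0.107, against -0.397 to 0.399 for differently numbered libraries. The GC trend of the libraries enters these values, so they cannot exclude pairing. No label names pairs, and the numbers were not taken as pairs in the main fit.

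The members and the lists were chosen with earlier results of these data known. Named genes are the 9 members, NEAT1, genes overlapping a member locus, for each list up to 4 genes past the threshold with the largest change and the most abundant one, and the 3 nearest profiles per family. The fit was tested on simulated data with known changes. GC content and length came from the longest GENCODE transcript for 97.3% of tested genes. Symbols matched for 22278 genes, and 771 more by an older symbol. Alternatives were a pseudocount of 0.1, no filter, a mean TPM of 5, quantile normalization, median centring, eBayes without trend, the replicate block, removal of a GC and length trend (splines with 4 degrees of freedom) alone and with the block, voom with TMM on recovered reads, an adjusted p under 0.01, and each library left out. Scripts ran under Python 3.11.15 with pandas 2.3.3, numpy 2.4.6, matplotlib 3.10.9 and scipy 1.17.1. Some items of the marker lists are not reported here.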

Additional observations from a re-analysis of the deposited data

How the results depend on the processing

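The log2 fold change of NEAT1 was past the threshold in every alternative fit run. For the 9 genes, 132 of 138 alternative values differed from the reported value by less than 1 SD between replicates, as moderated by limma. The exceptions were a pseudocount of 0.1 (SPRY4 -0.70, SPRED3 -0.76, ETV4 -0.60) and voom on recovered reads (-0.68, -0.76, -0.61), which by construction compress low transcripts less. The moderated SD is drawn toward the trend over all genes and is not the spread of each gene alone. With the GC and length trend removed, ETV5 (-0.59) and SPRY4 (-0.47) stayed within it, although their own replicates were tighter. A fold change cannot move under eBayes without trend, the filters on TPM or the replicate block. With the GC and length trend removed, adding the block likewise repeats the same value. That part of the agreement was fixed in advance and says nothing of robustness. The number of the 9 past the threshold was 6 except with no filter on TPM (2 of 9), with a mean TPM of at least 5 (2 of 3 genes kept), at an adjusted p under 0.01 (5) and on leaving out a library (5 to 6, where SPRY2 was lost without CsiRNA replicate 1 or NEAT1siRNA replicate 3). Since the 9 were chosen from this comparison, these counts support nothing.

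Over all genes, 1498 were called in the analysis as reported, 3364 with the GC and length trend removed, 2494 with voom, 719 at an adjusted p under 0.01, 505 with no filter (where low genes enter the trend and the adjustment) and 759 to 2083 on leaving out a library. The lowest of these came without CsiRNA replicate 1 and the highest without NEAT1siRNA replicate 2. Other causes were not tested. Quantile normalization called 2191 genes and median centring 2112. The counts over all genes are out of 10721 tested, except 10430 with the GC and length trend removed and 18531 with no filter. A mean TPM of at least 5 called 1032 of 7237. The list counts that follow are to be read beside these, and no gain of a list is read from them.

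Receptors and ligands, with 3 called, had 7 with the GC and length trend removed, 6 each with quantile normalization, median centring and voom, and 2 to 4 on leaving out a library. The RAS-ERK cascade, with 4 called, had 10 with that trend removed, 8 each with quantile normalization and voom, 7 with median centring, 2 with a mean TPM of at least 5, 0 each with no filter and at an adjusted p under 0.01, and 1 to 6 on leaving out a library. Partners of Sprouty and SPRED proteins, with 1 called, had 5 with the trend removed, 3 each with quantile normalization, median centring and voom, 0 each with no filter and at an adjusted p under 0.01, and 0 to 2 on leaving out a library. PEA3 control, with 0 called, had 2 each with the trend removed and with voom, 1 each with quantile normalization and median centring, and 0 to 2 on leaving out a library. Other ETS factors, with 1 called, had 4 with the trend removed, 3 each with quantile normalization, median centring and voom, 2 with a mean TPM of at least 5, 0 each with no filter and at an adjusted p under 0.01, and 0 to 3 on leaving out a library. Other ERK outputs, with 11 called, had 12 each with the trend removed, quantile normalization, median centring and voom. They had 8 of 15 tested genes with no filter and 10 at an adjusted p under 0.01. With a mean TPM of at least 5 (fewer genes tested) they had 5, and on leaving out a library 9 to 12.

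With the replicate number as a block, 1640 genes were called, of which 6 were among the 9 genes, and other ETS factors had 2. The block changed no other list count by over 1.5 times. With the block and the GC and length trend removed together, 3337 genes were called, with 7 receptors and ligands, 9 cascade genes, 6 partners, 2 of PEA3 control and 4 other ETS factors. Whether same-numbered libraries share more than a number is not known.

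A single line and siRNA, 3 cultures a group and unknown strand counting limit these values. For ETV4, with the fewest reads, and SPRY2, whose groups came closest, the spread between cultures limits the estimate.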
